A study of Zea mays with 56 samples.

Results

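A pair of gene models that the annotation places on ordinary chromosomes of maize were read only in leaves of plants that carry B chromosomes. They are Zm00004b040044 on chromosome 10 (135432835 to 135435546, a locus of 2712 bases) and Zm00004b023323 on chromosome 4 (199588521 to 199589106, 586 bases), in the coordinates of the authors' deposited table. They are 2 of the 41064 genes in the deposited gene table, and were chosen because their level was 0 in every control and rose with B copy number. The values that chose them are therefore described here without a test.

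The 28 plants were 45 days old, grown in a greenhouse and of the maize line W22, and the bulk leaf tissue of each gave 1 RNA-seq library. The controls were 4 plants that carry no B; the carriers had 1, 2, 3 or 4 B copies (1B to 4B, 4 plants each), 5 copies (5B, 2 plants), 6 copies (6B, 3 plants) or 7 copies (7B, 3 plants). Copies had been identified by fluorescence in situ hybridization when the plants were seedlings, and plants of 1 group are biological replicates in the study's design text. Levels are FPKM, fragment counts scaled by transcript length and library depth. Levels of different genes compare only as far as the length of each gene model fits the transcripts read, which was not tested. Between 20483 and 21144 genes stood at 0.5 FPKM or more per library. In bulk leaf, fewer cells of a type and less RNA per cell cannot be told apart. The plant codes of the controls start with another letter than those of the carriers, and whatever that code stands for cannot be told apart from B presence.

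B chromosomes are supernumerary chromosomes: a plant develops without them, they do not pair with the regular A chromosomes at meiosis, and in maize they raise their own transmission through nondisjunction in pollen and preferential fertilization. The maize B carries sequences copied from A chromosomes over a long time. Where a copy on the B resembles its A counterpart closely, an aligner can place reads from either copy on the A gene model. The files pair these identifiers with no gene name or function, and 0 of 41064 identifiers matched the RefSeq gene table (Zm-B73-REFERENCE-NAM-5.0), so no role is given here for either gene.

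The pattern was uncommon among A-chromosome genes. Of 40306 A-chromosome genes, 11592 were listed at 0 in all 4 controls, and 9 of those (0.0223% of all 40306) also had a group mean that rose at every step from 1B to 7B. Among the 758 B-annotated genes, whose identifiers start with Zm00044a, 23 did so (3.03%). The gap was smaller among genes at 0 in all controls whose carriers averaged at least 1 FPKM. Of these, 8 of 78 A-chromosome genes and 22 of 64 B-annotated genes rose at every step. The 2 genes described here had the highest carrier means of the 9, at 21.2 ± 13.7 FPKM for Zm00004b040044 and 7.02 ± 5.88 FPKM for Zm00004b023323 (SD, n = 24). The next inside, Zm00004b033487 on chromosome 9, had a carrier mean of 5.72 FPKM. Just outside, Zm00004b030095 was also listed at 0 in controls and went from 1.23 FPKM in 1B to 8.59 FPKM in 7B, with 2 steps at which the group mean fell.

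Zm00004b040044 stood at 6.18, 5.06, 6.01 and 5.91 FPKM in the 4 plants with 1 copy. With 2 copies it stood at 10.2, 9.06, 9.22 and 8.73 FPKM, and with 3 copies at 18.1, 18.3, 17.6 and 16.3 FPKM. With 4 copies the plants stood at 16.4, 17.0, 24.9 and 22.9 FPKM. Every plant with 2 copies was above every plant with 1, and every plant with 3 was above every plant with 2, but the 4B plants split into a lower pair inside the 3B range and a higher pair above it.

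Zm00004b040044 was at 29.9 and 29.7 FPKM in the 5B plants, at 32.2, 32.1 and 30.5 FPKM in the 6B plants and at 53.3, 42.1 and 48.1 FPKM in the 7B plants. The group means were 5.79 ± 0.497 FPKM with 1 copy (SD, n = 4), 9.30 ± 0.627 with 2 (n = 4), 17.6 ± 0.883 with 3 (n = 4), 20.3 ± 4.24 with 4 (n = 4), 29.8 ± 0.157 with 5 (n = 2), 31.6 ± 0.974 with 6 (n = 3) and 47.9 ± 5.63 with 7 (n = 3). Only 3B and 4B overlapped among neighbouring groups. The gain from one group to the next was uneven, from 1.84 FPKM between 5B and 6B to 16.2 FPKM between 6B and 7B.

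**Figure D1:**
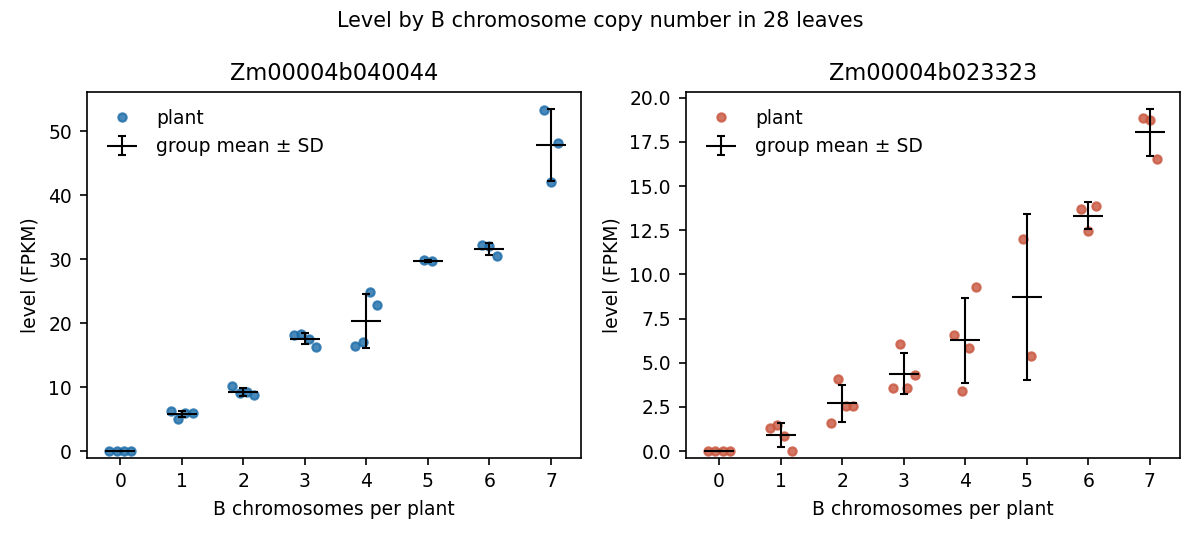
Level of Zm00004b040044 (left) and Zm00004b023323 (right) in FPKM against the number of B chromosomes. Points are the 28 plants, and bars give the group mean and SD. Both genes lie at 0 in the 4 controls, and the 7B plants lie between 42.1 and 53.3 FPKM on the left and between 16.5 and 18.9 FPKM on the right.

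Zm00004b023323 was lower and more variable at low copy number. The 1B plants stood at 1.30, 1.48, 0.845 and 0 FPKM, the 2B plants at 1.58, 4.10, 2.57 and 2.56 FPKM, and the 3B plants at 3.59, 6.05, 3.57 and 4.31 FPKM. The 1B plant listed at 0, replicate 4, had 5.91 FPKM of Zm00004b040044. The 4B plants stood at 6.56, 3.41, 5.86 and 9.26 FPKM, so that 1 of them lay below all 3B plants.

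At higher copy number, Zm00004b023323 stood at 12.02 and 5.41 FPKM in the 5B plants, at 13.7, 12.4 and 13.9 FPKM in the 6B plants and at 18.9, 18.7 and 16.5 FPKM in the 7B plants. Neighbouring groups overlapped from 2B to 5B, whereas 1B and 2B, 5B and 6B, and 6B and 7B did not overlap. The group means were 0.908 ± 0.662 FPKM with 1 copy (SD, n = 4), 2.70 ± 1.04 with 2 (n = 4), 4.38 ± 1.17 with 3 (n = 4), 6.27 ± 2.41 with 4 (n = 4), 8.72 ± 4.68 with 5 (n = 2), 13.3 ± 0.769 with 6 (n = 3) and 18.03 ± 1.32 with 7 (n = 3).

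The levels rest on few reads, which can be counted because FPKM values of a gene move in steps of 1 read. After correction for relative depth, which ranged from 0.523 to 1 of the deepest library, 90.3% of 8973 low genes had such a step, and 99.96% of their values above 0 were whole multiples of it. A gene was given a step only where nearly all its values were whole multiples, so the second share was bound to be high. For Zm00004b023323 the step was 0.267 FPKM at the depth of Control replicate 1, and its carrier values were 0 to 59 steps. Step times locus length was 156.7 for this gene, against a median of 157.2 over 142 other genes with loci of 550 to 620 bases, so that a step there is worth about what 1 read is worth in genes of that size.

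All 24 carrier values of Zm00004b040044 were whole multiples of 0.254 FPKM at the same depth, between 15 and 169 steps. In 13 of the 24 carriers the number of steps was also a multiple of 3, so that those values fit a step of 0.761 FPKM too, and in 11 carriers it was not. The smaller step is taken as 1 read here. The larger could be 1 read only where a read that aligns at several places was divided among them, and how such reads were counted is not given in the sources used here. With the smaller step, the spread among plants of one copy number was 0.848 times what counting error gives (chi-square over 17 degrees of freedom), and with the larger step 0.283 times. For Zm00004b023323 the same measure was 1.56.

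The zeros in controls are bounded by depth. With 0 reads in the 4 controls, 3 reads over the 4 libraries would have given 0.243 FPKM of Zm00004b040044 with the smaller step (0.729 FPKM with the larger) and 0.256 FPKM of Zm00004b023323. Intervals and limits of this kind cover counting error only. The lowest 1B level of Zm00004b040044, 5.06 FPKM, was above its limit under either step. For Zm00004b023323 1B replicate 4 was at 0 like the controls, and the lowest of the other 1B plants, at 0.845 FPKM, was above the limit.

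Divided by copy number, the group means of Zm00004b040044 stayed between 4.65 and 6.84 FPKM per copy, while those of Zm00004b023323 climbed from 0.908 to 2.58. Zm00004b040044 stood at 5.79 ± 0.497 FPKM per copy with 1 copy (SD, n = 4), 4.65 ± 0.314 with 2 (n = 4), 5.86 ± 0.294 with 3 (n = 4), 5.07 ± 1.06 with 4 (n = 4), 5.96 ± 0.0313 with 5 (n = 2), 5.27 ± 0.162 with 6 (n = 3) and 6.84 ± 0.804 with 7 (n = 3). Single carriers lay between 4.10 and 7.62 FPKM per copy. The group means per copy of 2B, 4B and 6B all lay below those of 1B, 3B, 5B and 7B. The 4B plants were split, at 4.10, 4.24, 6.22 and 5.72 FPKM per copy, and 4B replicate 3 was above every 1B, 3B and 5B plant. With FPKM scaled by the spike-in RNAs (described below), the group means were 17.3 FPKM in 3B and 23.9 FPKM in 4B. On that scale 4B lay above 3B per copy, so the alternation did not hold throughout. It was seen in the deposited values and was not tested.

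Zm00004b023323 stood at 0.908 ± 0.662 FPKM per copy with 1 copy (n = 4), 1.35 ± 0.520 with 2 (n = 4), 1.46 ± 0.388 with 3 (n = 4), 1.57 ± 0.601 with 4 (n = 4), 1.74 ± 0.936 with 5 (n = 2), 2.22 ± 0.128 with 6 (n = 3) and 2.58 ± 0.188 with 7 (n = 3). The group mean per copy thus rose at every step, although plants of different groups overlapped up to 7B. At 2.405 FPKM per copy, 5B replicate 1 was above every 6B plant and above 7B replicate 3 at 2.359. The highest 6B plant, at 2.311, was also below 4B replicate 4 at 2.315. By reads, the 1B plants held 10 reads in all, or 0.877 FPKM per copy with an exact Poisson 95% interval of 0.420 to 1.61. The 7B plants held 167 reads, or 2.57 FPKM per copy with an interval of 2.19 to 2.99. Both intervals treat the reads of a group as 1 pool and leave out the spread between plants.

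**Figure D2:**
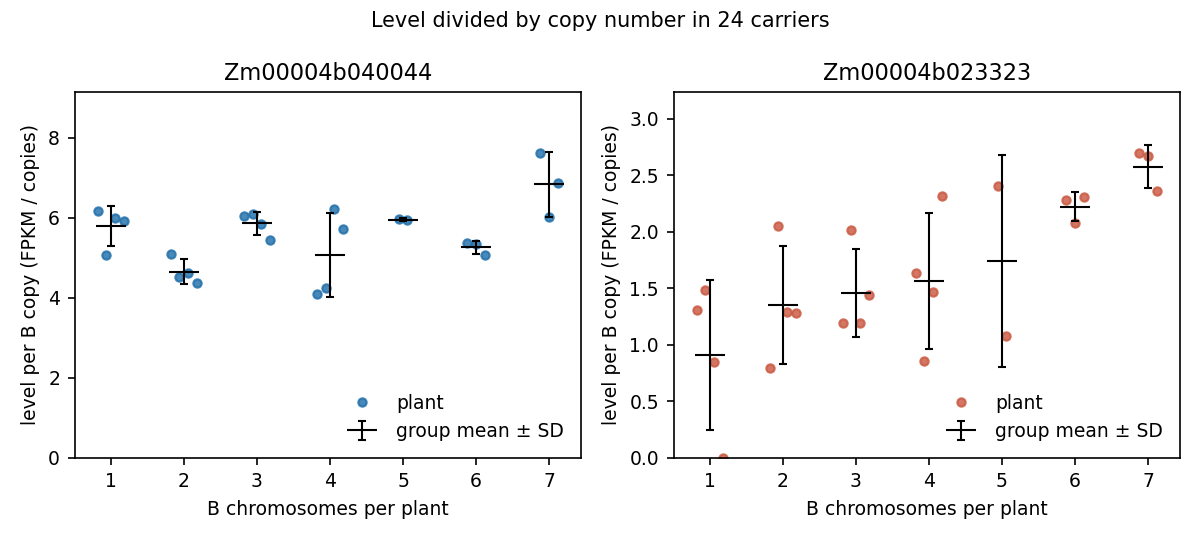
Level per B copy (FPKM divided by the number of B chromosomes) in the 24 carriers, for Zm00004b040044 (left) and Zm00004b023323 (right). Points are plants, and bars give the group mean and SD. Group means lie between 4.65 and 6.84 on the left, where those of 2B, 4B and 6B are the lowest, and climb from 0.908 to 2.58 on the right.

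A straight line over the 24 carriers gave a gain of 6.47 ± 0.394 FPKM per added copy (SE) for Zm00004b040044, with 92.5% of the variance explained and an intercept of -2.75 ± 1.66 FPKM. For Zm00004b023323 the gain was 2.73 ± 0.208 FPKM per added copy, with 88.7% of the variance explained and an intercept of -3.08 ± 0.874 FPKM. A line through proportional levels would have an intercept of 0. With the square of copy number added to the line, its term was 0.529 ± 0.199 (SE) for Zm00004b040044 and 0.343 ± 0.0954 for Zm00004b023323. Both fits thus curved upward over the carriers, which is described here without a test. The exponent of level on copy number, which is 1 for proportional levels, was 1.05 ± 0.0487 (SE, 95% interval 0.947 to 1.15, n = 24) for Zm00004b040044 and 1.37 ± 0.106 (1.15 to 1.59, n = 23, the 1B plant at 0 left out) for Zm00004b023323.

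The values moved with the groups at either end. Without the 7B group the exponent of Zm00004b040044 was 0.986 and its gain 5.43 FPKM per added copy, and without the 1B group the exponent was 1.19. For Zm00004b023323 the exponent was 1.29 without 7B, 1.52 without 1B and 1.58 in a quasi-Poisson fit of the reads that keeps the plant at 0. The exponents were the higher ones for Zm00004b023323 under each of these settings.

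The ratio of the group means of Zm00004b040044 to Zm00004b023323 accordingly went down, from 6.38 in 1B and 3.44 in 2B to 2.37 in 6B and 2.65 in 7B. Single plants ranged from 3.41 to 7.11 in 1B, where 3 of 4 have a ratio, and from 2.25 to 2.91 in 7B (n = 3). They ranged from 2.21 to 6.45 in 2B (n = 4) and from 2.49 to 5.49 in 5B (n = 2). The 7B mean was 8.26-fold the 1B mean for Zm00004b040044 and 19.9-fold for Zm00004b023323. Counted in reads, the latter was 20.5-fold with an exact 95% interval of 10.9 to 43.5, which covers counting error only; the spread between plants of this gene was above counting error.

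**Figure D3:**
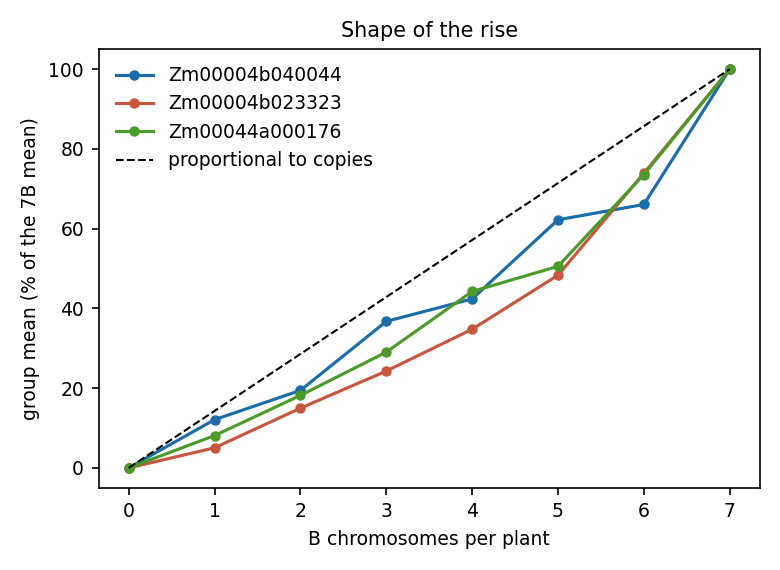
Group mean of Zm00004b040044, Zm00004b023323 and the B-annotated gene Zm00044a000176 as percent of their 7B mean, against the number of B chromosomes. The dashed line is a level proportional to copies. At 4 copies the genes stand at 42.4%, 34.8% and 44.2%, against 57.1% on the dashed line.

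Scaling by the spike-in RNAs changed the order of 1 pair of group means and made more plants of neighbouring groups overlap. With FPKM scaled by the ERCC total (synthetic RNAs added to each sample), the group mean of Zm00004b040044 was 33.8 ± 1.28 FPKM in 5B (SD, n = 2) and 29.8 ± 10.6 FPKM in 6B (n = 3), so that it no longer rose at every step. The 6B library with 1634328 spike-in counts, replicate 3, stood at 17.9 FPKM on this scale, and the 6B mean without it was 35.7 FPKM (n = 2). Plants of 5B and 6B overlapped on this scale, with 6B replicate 2 at 33.0 FPKM and 5B replicate 2 at 34.7 FPKM. So did those of 1B and 2B, where 1B replicate 3 at 8.86 FPKM was above 2B replicates 2 and 4 at 8.14 and 7.27 FPKM. Zm00004b023323 rose at every step on this scale as well, from 0.978 FPKM in 1B to 19.6 FPKM in 7B.

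Beside genes of the B chromosome, both genes fell within the spread of levels, and Zm00004b023323 near the edge of the spread of exponents. A gene counted as B-specific where it is B-annotated, its carriers averaged at least 1 FPKM and its controls averaged less than 0.1 FPKM, which 94 genes met. Their gain had a median of 1.14 FPKM per added copy, with quartiles of 0.559 and 1.99, and 4 of the 94 gained more than Zm00004b040044 and 21 more than Zm00004b023323. The exponent of their group means had a median of 0.942, with quartiles of 0.822 and 1.06. By the same measure Zm00004b040044 had 1.06, with 24 of 94 above it, and Zm00004b023323 had 1.48, with 1 of 94 above it. These counts describe the genes and are not a test, since all were chosen by their levels.

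**Figure D4:**
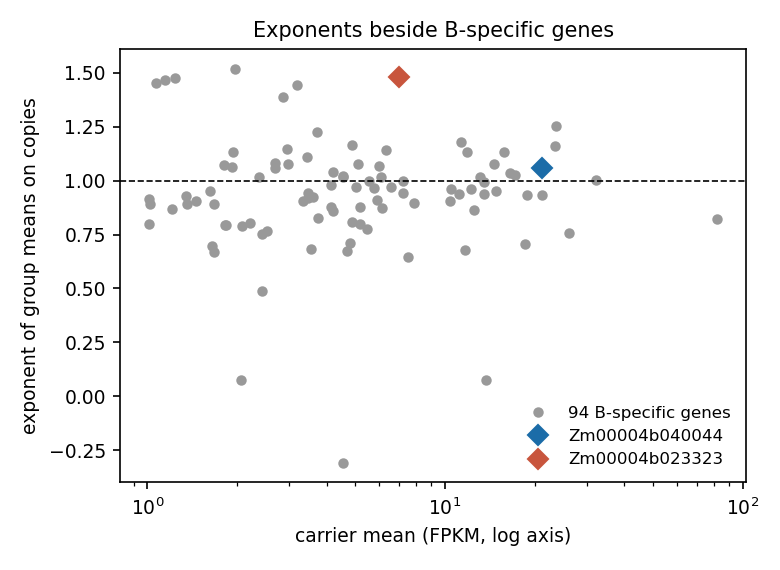
Exponent of group means on copy number against the carrier mean in FPKM (log axis), for 94 B-specific genes (grey) and the 2 A-annotated genes (diamonds). The dashed line marks proportional levels. Zm00004b040044 lies at 1.06 among the grey points and Zm00004b023323 at 1.48, with 1 grey point higher.

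As a share of the summed level of the B-specific genes, Zm00004b040044 held 2.69 ± 0.433% at 1 copy (SD, n = 4), 3.05 ± 0.232% at 3 copies (n = 4) and 3.69 ± 0.422% at 7 copies (n = 3). At 2, 4, 5 and 6 copies it held 2.30%, 2.50%, 3.08% and 2.94%, so its share did not rise at every step. The lowest 7B plant, at 3.36%, was above the highest 1B plant, at 3.06%. Zm00004b023323 held 0.408 ± 0.284% at 1 copy, 0.754 ± 0.170% at 3 copies and 1.39 ± 0.153% at 7 copies, and its lowest 7B plant, at 1.22%, was above all 1B plants, which reached 0.605%.

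Most of the genes most alike in pattern were B-annotated. Likeness was Pearson's r of FPKM over the 24 carriers among 18980 other genes with a carrier mean of 1 FPKM or more, of which 1.12% are B-annotated. Copy number was not removed in this measure, so r mostly follows copy number. The 2 genes were chosen for their rise with copies, with which r was 0.962 for Zm00004b040044 and 0.942 for Zm00004b023323. Their likeness to other genes that rise with copies is therefore a description and not a test. For Zm00004b040044 the 10 most alike genes were all B-annotated, with r from 0.950 to 0.972. For Zm00004b023323, 8 of the 10 were B-annotated, with r from 0.929 to 0.972 over the 10, and the other two were Zm00004b027503, named after its values were seen, and Zm00004b040044 (r = 0.943, rho = 0.934).

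The same gene came first for both, Zm00044a000176 on the B chromosome (23541357 to 23543940), with r = 0.972 in each case. It was at 0 in controls, at 4.51 ± 0.886 FPKM in 1B (SD, n = 4) and at 55.6 ± 4.22 FPKM in 7B (n = 3). Its exponent was 1.26 ± 0.0487 (SE, n = 24), between those of the 2 A-annotated genes. Of the 10 genes most alike to each, 5 were shared.

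Within a copy number the deviations of the 2 genes had a correlation near 0, and none of 3 relations passed the threshold of 0.05 as deposited. Deviations of log2(FPKM + 0.5) from the group mean, which the choice of genes did not use, had r = 0.0420 and rho = 0 between them over 24 plants (permutation within groups, two-sided, p = 0.879 and p = 1, each also after Benjamini-Hochberg adjustment over 3 relations). Within a copy number the spread of Zm00004b040044 was 0.848 times counting error, which leaves little but counting error in its deviations. A correlation near 0 can therefore not tell whether the 2 genes vary together between plants. Zm00004b040044 and the sum of the B-specific genes gave r = -0.450 (permutation p = 0.0223, adjusted p = 0.0669) and rho = -0.416 (permutation p = 0.0577, adjusted p = 0.173). Without the 2 plants farthest from the median r was -0.372 (permutation adjusted p = 0.355). Spike-in scaling multiplies every gene of a library by 1 factor, so both measures then share that factor. On that scale r was 0.768 for this relation (permutation adjusted p = 0.00561) and 0.348 between the 2 genes (permutation adjusted p = 0.213). The shared factor and a relation of the genes cannot be told apart there. Zm00004b023323 gave r = 0.0566 with that sum (permutation p = 0.844, adjusted p = 0.879) and rho = 0.00609 (permutation p = 0.983, adjusted p = 1). All 3 measures come from the same library and share its scaling.

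Around Zm00004b040044, 1 of the 20 nearest tested genes also rose with B dosage. The slope of log2(FPKM + 0.5) per B copy among the carriers was tested with limma over all genes, and it called 2.59% of 23672 A-chromosome genes in either direction and 1.67% as rising. That count of 613 calls was 118 with spike-in scaling, 311 without 1B replicate 1, 397 and 402 without 6B replicate 2 or 3, and 956 without 1B replicate 2. The gene that rose, Zm00004b040043, is the immediate neighbour on the lower side, 403 bases away (135430025 to 135432431). Its slope was 0.39 ± 0.06 log2 per copy (SE; limma adjusted p = 8.3e-05). The other 19 had adjusted values above the threshold, and the median slope of the 20 was 0.01 log2 per copy. The next gene on the upper side starts 2231 bases away and was at 5.43 FPKM in controls, 2.56 in 1B and 4.42 in 7B.

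Zm00004b040043 was at 0 in all 4 controls too. It was at 0 in 3 of 4 plants with 1 copy and at 0.662 FPKM in the other, and the 2B plants stood at 0, 0.507, 0.213 and 0.760 FPKM. The 7B plants stood at 2.38, 3.30 and 4.46 FPKM, with 9, 14 and 20 reads. Its group mean fell once, from 2.19 FPKM in 5B to 1.55 FPKM in 6B, and neighbouring groups overlapped throughout. It amounted to 2.86% of the level of Zm00004b040044 in 1B and 7.06% in 7B, and its 24 carrier values held 126 reads in all.

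**Figure D5:**
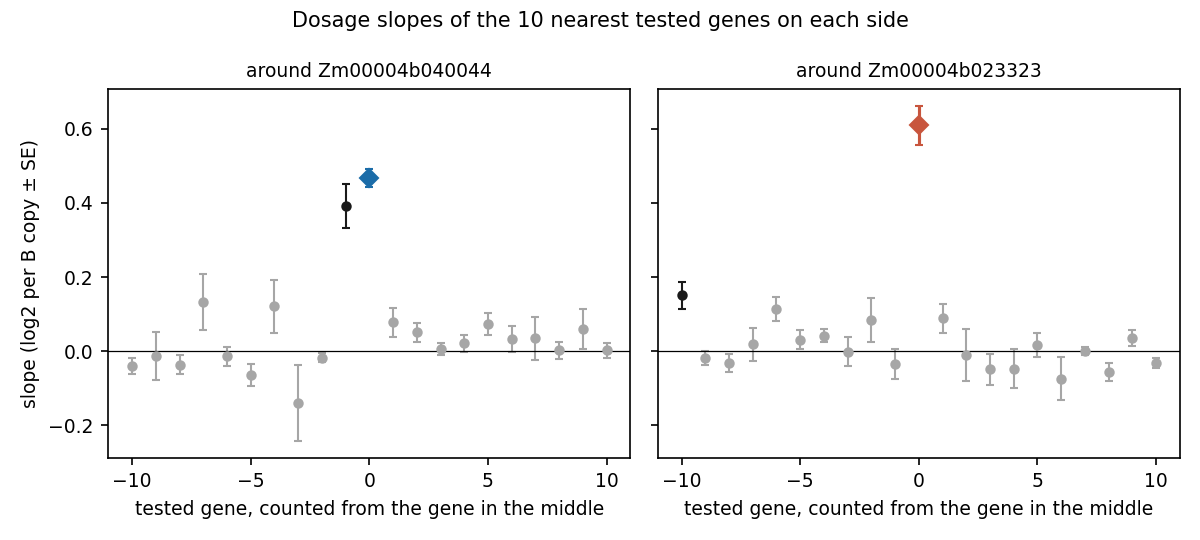
Slope of log2(FPKM + 0.5) per B copy with its SE for the 10 nearest tested genes on each side of Zm00004b040044 (left) and Zm00004b023323 (right), in order along the chromosome. Diamonds are the 2 genes themselves, black points passed the limma threshold and grey points did not. On the left the immediate neighbour stands at 0.39, while on the right the black point is the 10th gene on the lower side, at 0.15.

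Around Zm00004b023323, 1 of 20 tested genes was called for dosage as well, but far away. It was Zm00004b023293, 801606 bases off, whose slope was 0.15 ± 0.04 on the log2 scale for each copy (SE; limma adjusted p = 0.0176). That gene held at most 4 reads in a carrier, was read in 2 of 4 controls and had its highest group mean in 5B, at 0.635 FPKM. Its adjusted p was 0.0516 without 7B replicate 1 and 0.0650 with spike-in scaling. The nearest tested gene, 42323 bases away, was at 0.974 FPKM in controls, 1.70 FPKM in 1B and 1.80 FPKM in 7B.

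For B presence, the carriers against the 4 controls, 10 of the 20 genes near Zm00004b040044 were called, 4 higher and 6 lower, and 8 of the 20 near Zm00004b023323, 4 higher and 4 lower. Over all 24159 tested A-chromosome genes, limma called 46.8% (22.8% higher and 24% lower), so both shares lie near the background. With spike-in scaling the counts were 4 and 5, and limma then called 31.9% of 24275 A-chromosome genes, 24.5% higher and 7.33% lower, with the median effect of all of them at 0.22 log2 against -0.01 as deposited.

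In the authors' deposited table, which sets each copy number against the controls with Cuffdiff, Zm00004b023323 is marked as not tested for 1B, at 0.908 FPKM, and as tested for the 6 higher copy numbers. Zm00004b040044 is marked as tested for all 7.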

How the data were processed

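RNA-seq levels of 28 W22 leaves were used. The authors deposited FPKM per gene and plant, and raw counts of ERCC spike-ins (427551 to 1634328 per library). Every group mean of these FPKM equalled the FPKM of the authors' deposited Cuffdiff table within 0.1% plus a small fixed allowance, which makes the check looser for low values. The tools named, with no role, per the submitters' processing notes are Cuffdiff, edgeR, Bowtie2, TopHat2 and cutadapt 1.16. Build, annotation, strand and the treatment of reads that align at several places are not given in the sources used here.

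Relative depth was the commonest ratio of low values to Control replicate 1. A value counted as whole within 0.004 plus 0.0004 times the multiple. All genes were fitted with limma 3.58.1 (R 4.3.3, mean-variance trend) on log2(FPKM + 0.5), keeping genes that reach 0.5 FPKM in 2 libraries, with Benjamini-Hochberg adjustment. It was tested on simulated data. Dosage used the 24 carriers with copy number as a number. Presence used all 28 libraries in 8 groups, carriers weighted equally by group. Correlations used 100000 permutations within groups (numpy 2.4.6). Labels call replicates biological, and no 2 libraries were identical.

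The 2 genes, their lists and the thresholds were chosen with earlier results of these data known. Named are the 2 genes, for each the gene most alike, and up to 2 neighbours called for dosage; genes named beside the choice of the 2 were picked after their values were seen. TE and small RNA tables were not used, since TE identifiers carry no coordinates.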

Additional observations from a re-analysis of the deposited data

Results flagged for a closer look

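Among 21 groups of 4 plants examined over 5 named genes, 3 had 1 plant far from the others. In each case 3 plants were at 0 and 1 was not, so that the gap spans the whole range by construction, and the chance rate of about 1 in 20 groups, which holds for continuous values, does not apply: Zm00004b040043 in 1B at 0.662 FPKM, and Zm00004b023293 in 1B at 0.132 FPKM and in 2B at 0.128 FPKM. The latter 2 values are 1 read each, and the first is 3 reads. None of the groups of Zm00004b040044 or Zm00004b023323 was among them.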

How the results depend on the processing

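The gain per added copy of Zm00004b040044 was 6.92 FPKM with spike-in scaling, 5.43 without 7B and 6.92 without 1B, against 6.47, and that of Zm00004b023323 was 2.33 without 7B and 3.00 without 1B, against 2.73. Leaving out 1 carrier gave 6.03 (without 7B replicate 1) to 6.62 and 2.61 to 2.80. The exponent of Zm00004b040044 was 0.986 without 7B, 1.19 without 1B and 1.13 from reads, and 1.02 to 1.07 without 1 carrier. That of Zm00004b023323 was 1.61 with 0.1 FPKM added, 1.52 without 1B and 1.58 from reads, and 1.34 to 1.44 without 1 carrier. The fits without 1B and from reads were added after seeing the data.

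Genes called for dosage near Zm00004b040044 numbered 1 in every setting run, and near Zm00004b023323 2 with no filter on low values, 0 with spike-in scaling (1 without it), and 1 to 2 without 1 carrier, 2 without 1B replicate 2, 5B replicate 2 or 6B replicate 2, where Zm00004b023306, named after its values were seen, was added. Without 7B replicate 1 the count was also 1, but the gene called was Zm00004b023306 (limma adjusted p = 0.0231), not Zm00004b023293. Presence calls were 4 and 5 with spike-in scaling, and 7 to 12 and 7 to 8 without 1 plant; where 5B keeps 1 plant it is assumed to vary like the others. Zm00004b040043 passed in all 24 fits without 1 carrier (limma adjusted p up to 5.9e-04).

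The correlation of deviations between the 2 genes was -0.0101 with a pseudocount of 0.1, 0.348 with spike-in scaling and -0.132 to 0.170 without 1 carrier. With the B-specific sum, Zm00004b040044 gave 0.768 with spike-in scaling and -0.524 to -0.352 without 1 carrier, passing in 5 of 24 such fits (without 2B replicate 2, 3B replicate 2, 6B replicate 1, 7B replicate 2 or 7B replicate 3), and Zm00004b023323 gave 0.346 with spike-in scaling, -0.0830 without the 2 farthest plants and -0.102 to 0.179 without 1 carrier. Spike-in scaling multiplies both measures of a library by 1 factor. On that scale the relation of Zm00004b040044 with the sum passed (permutation adjusted p = 0.00561). The cause of the changes was not tested.

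Replicate numbers do not pair the plants: of 87 same-numbered pairs, 9 had a correlation of deviations over 0.1 (mean 0.00396), and 10 of 28 libraries correlated best with their own number. With the replicate block the gains were 6.48 and 2.74 FPKM per copy, the exponents 1.05 and 1.37, the dosage calls 1 and 1, and the presence calls 10 and 8. The TE results planned for each locus were not run.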
